A study of Homo sapiens with 9 samples.

Results

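The DNA repair genes described here are 40 genes of 5 repair pathways, picked by name from the 60675 gene IDs of the count table. The choice was made with earlier results of these data known. They comprise 12 genes of homologous recombination, 10 Fanconi anaemia genes, 2 of mismatch repair, 11 of nucleotide excision repair and 5 of base excision repair. Each gene is counted in 1 route only, and EXO1, which also acts in mismatch repair, is counted under homologous recombination. RNA was sequenced from MM.1S, an established human multiple myeloma line grown as 1 line in culture. The cells were given epigallocatechin gallate (EGCG), a green tea catechin, at 0, 40 or 80 µM for 24 h, and the libraries at 0 µM are the control. Each dose had 3 libraries, and the stated aim was to learn how EGCG leads these cells to apoptosis. No label says that the 3 libraries of a dose were separate cultures, so a p-value here covers the spread between libraries, which may be technical.

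Cells mend DNA by separate routes that fit the kind of damage. Base excision repair removes single altered bases, nucleotide excision repair cuts out a stretch around a bulky lesion, and mismatch repair corrects copying errors. Homologous recombination restores broken strands from an intact copy, and the Fanconi anaemia proteins unhook crosslinks between the strands. Many genes of mismatch repair, recombination and the Fanconi route are transcribed mainly in cells that replicate their DNA, while DDB2 and XPC are known targets of p53, the stress-activated transcription factor. Myeloma arises from plasma cells, whose precursors cut and mutate their own immunoglobulin genes with the help of UNG and mismatch repair.

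Libraries held 12674490 to 16427343 counts, and a floor of 3 counts equals 0.183 to 0.237 CPM (counts scaled to library size by the TMM method). Together the 40 genes took 0.228 to 0.312% of the counts of a library. All 7 plasma cell markers examined were measured, with a summed level of 3902 to 3977 CPM in the control, 3797 to 4156 CPM at 40 µM and 4018 to 4510 CPM at 80 µM. Markers of T and NK cells summed to 4.29 to 5.28 CPM in the control, 2.55 to 3.91 CPM at 40 µM and 1.56 to 2.42 CPM at 80 µM. Those of monocytes and stroma summed to at most 0.89 and 0.92 CPM in any library, and 3 of these 10 markers of other cells were at 0 throughout. Replicate 2 at 40 µM stood apart from the other libraries on the second principal component, which held 13.7% of the variance. Reads of the 2 mitochondrial ribosomal RNAs made up 0.649 to 0.731% of control libraries, 1.28 to 1.63% at 40 µM and 3.97 to 4.65% at 80 µM.

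All 40 genes passed the filter on low counts. At 80 µM, 16 of them changed against the control, at an adjusted p under 0.05 in edgeR's quasi-likelihood test over 15982 genes. Of these, 6 rose and 10 fell, that is 15% and 25% of the 40 genes. The same test called 34.9% of all genes, 17.4% higher and 17.5% lower, so the share of repair genes called (40%) was close to that of the whole transcriptome. Their log2 fold changes ran from -1.19 for UNG to 1.295 for UVSSA, with a median of -0.21 against -0.0013 over all genes. In each of the 16 genes, every library at 80 µM lay on one side of every control library. Groups stood apart in this way in 23 of the 40 genes and in 49.9% of all genes tested. At this dose 19 of the 40 had an unadjusted p under 0.05. The share of all genes is not given for this or the other unadjusted counts, so they do not set repair genes apart. In bulk RNA, less transcript per cell cannot be told apart from fewer cells that make it.

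The plot of fold changes by pathway gives the 5 routes one by one. In nucleotide excision repair 5 of 11 genes rose and 1 fell, with a median log2 fold change of 0.46. In base excision repair 3 of 5 fell and none rose, with a median of -0.75. Mismatch repair had 1 of 2 genes lower (median -0.44), Fanconi anaemia 3 of 10 lower (median -0.34), and homologous recombination 1 higher and 2 lower of 12 (median -0.24). Over all genes tested, 17.4% were called higher and 17.5% lower. Homologous recombination, with 8.33% higher and 16.7% lower, did not exceed these shares. Summed over its 11 genes, nucleotide excision repair reached 475.8 CPM at 80 µM against 354.6 CPM in the control. The rise was not shared by 18 further genes of this route outside the 40, of which 1 rose and 2 fell (median -0.13). Those 18 summed to 1707 CPM at 80 µM against 1862 CPM in the control. The 5 base excision repair genes summed to 953.4 CPM at 80 µM against 1598 CPM in the control, and PARP1 alone made up most of that sum. Of 17 further base excision repair genes 2 rose and 5 fell, with a median of -0.25. Whether the routes differed from each other was not tested.

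**Figure D1:**
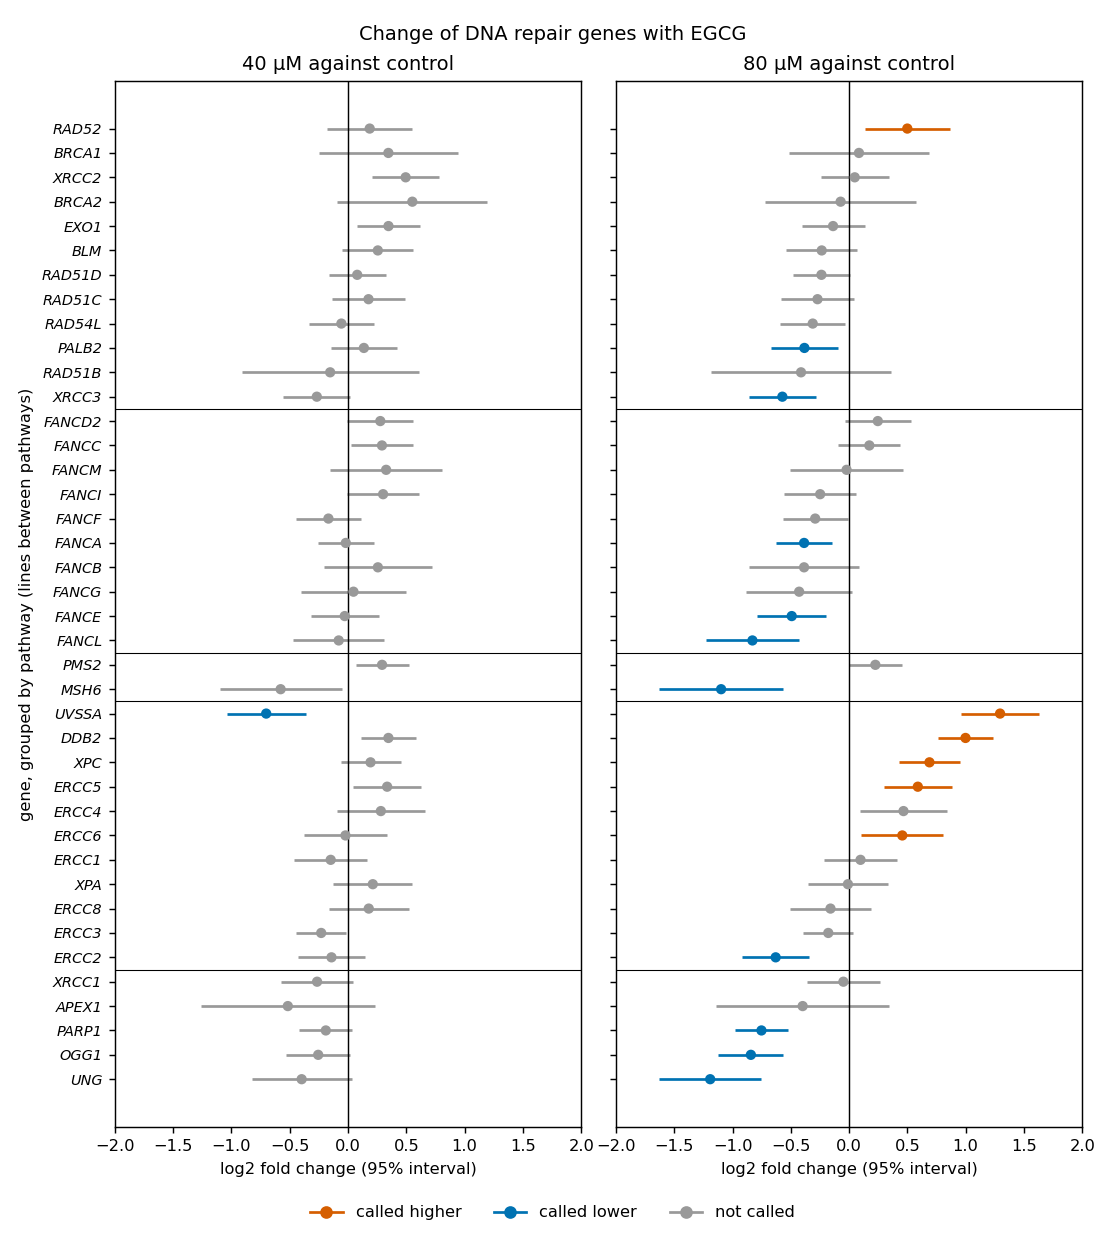
Log2 fold change of each of the 40 repair genes against the control (x axis, log2 units) by gene and repair pathway (y axis), at 40 µM (left) and 80 µM EGCG (right). Points are edgeR estimates and bars their 95% intervals, in orange where called higher, blue where called lower and grey where not called. Nucleotide excision repair holds 5 of the 6 genes that rose at 80 µM. Base excision repair and Fanconi anaemia each hold 3 of the 10 that fell, homologous recombination 2, and mismatch and nucleotide excision repair 1 each. Over all genes tested, 17.4% were called higher and 17.5% lower at this dose.

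Sequence upstream of the RefSeq start (GRCh38.p14) is shown for the risen genes DDB2 and UVSSA and for the fallen genes PARP1 and OGG1, because these 4 also changed between the doses under every analysis setting tried. Each line gives the 250 bases before a start, on the strand of the gene. Capitals mark matches to the CCAAT box (CCAAT, or ATTGG on the opposite strand) and to the core of the E2F motif (TTCCCGC or TTCGCGC or TTGCCGC or TTGGCGC, or their reverse complements).
DDB2, chr11:47214204-47214453, plus strand: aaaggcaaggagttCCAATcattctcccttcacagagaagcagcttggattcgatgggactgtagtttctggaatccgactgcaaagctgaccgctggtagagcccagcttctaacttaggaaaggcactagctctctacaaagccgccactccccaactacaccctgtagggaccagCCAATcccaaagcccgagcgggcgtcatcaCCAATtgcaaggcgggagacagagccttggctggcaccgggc
UVSSA, chr4:1346958-1347207, plus strand: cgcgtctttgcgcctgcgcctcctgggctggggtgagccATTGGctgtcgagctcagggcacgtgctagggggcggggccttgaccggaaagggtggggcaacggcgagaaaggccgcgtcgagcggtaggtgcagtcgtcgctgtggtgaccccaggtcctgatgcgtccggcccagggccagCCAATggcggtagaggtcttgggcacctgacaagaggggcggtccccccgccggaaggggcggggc
PARP1, chr1:226408094-226408343, minus strand: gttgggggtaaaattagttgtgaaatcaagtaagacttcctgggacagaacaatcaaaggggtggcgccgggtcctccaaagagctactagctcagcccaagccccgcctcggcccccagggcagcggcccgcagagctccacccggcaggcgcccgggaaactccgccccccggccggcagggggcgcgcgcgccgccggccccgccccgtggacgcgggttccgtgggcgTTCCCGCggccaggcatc
OGG1, chr3:9749702-9749951, plus strand: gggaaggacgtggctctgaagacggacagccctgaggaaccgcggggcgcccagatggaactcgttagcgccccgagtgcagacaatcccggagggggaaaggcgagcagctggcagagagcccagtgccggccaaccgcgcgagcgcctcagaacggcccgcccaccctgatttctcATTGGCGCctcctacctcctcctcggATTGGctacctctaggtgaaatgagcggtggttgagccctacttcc
The DDB2 window has 3 CCAAT boxes and the UVSSA window 2, and neither has an E2F core. A second RefSeq start of DDB2 has an E2F core in its own window. The PARP1 window has 1 E2F core and no CCAAT box. In OGG1 the first CCAAT box and the E2F core overlap by 4 letters in the run ATTGGCGC.

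Of the 40 genes, 39 had at least 1 window in the RefSeq table, 56 windows in all. An E2F core stood in 44.6% of these windows, against 10.9% of the 35116 windows in the table and 15.9% of the 15434 windows of tested genes. Some windows of a gene overlap, so the same core of MSH6, PMS2 and RAD54L was counted in more than 1 window. By gene, 6 of the 10 that fell at 80 µM had one (FANCA, FANCL, MSH6, OGG1, PARP1 and UNG), as did 3 of the 6 that rose (RAD52, XPC and DDB2) and 10 of the 23 others. A gene counts here if any of its windows has a core. The share of all genes by this count is not given, so the shares by window cannot be set against it. CCAAT boxes stood in 37.5% of the windows of repair genes, against 32% of all windows and 33.1% of those of tested genes. The CHR element TTTGAA was in 8.93%, against 13.3% and 9.3%. A full p53 site (a pair of half-sites with a spacer of 0 to 13 bases) was in none of the 56 windows and in 0.0256% of all windows. Letters in a window are a description and do not show that a factor binds there.

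Within nucleotide excision repair UVSSA, DDB2 and XPC had the highest estimates at 80 µM. UVSSA, which helps the repair machinery take over from a stalled RNA polymerase (chr 4, 1347266 to 1395992, plus strand; gene positions are from GENCODE 29 on GRCh38), had 18.2, 20.01 and 20.9 CPM in the control libraries, 12.96, 10.9 and 12.5 CPM at 40 µM, and 38.8, 55.2 and 51.0 CPM at 80 µM. The 3 doses did not overlap, with 40 µM lowest and 80 µM highest. At 80 µM its level was 2.45-fold that of the control (log2 1.295 ± 0.15 (SE), adjusted p = 0.000149).

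DDB2, the subunit that finds ultraviolet lesions in chromatin (chr 11, 47214465 to 47239240, plus strand), had 26.8, 29.9 and 30.8 CPM in the control, 38.4, 34.5 and 38.2 CPM at 40 µM, and 56.3, 59.0 and 59.4 CPM at 80 µM. Its 3 groups stood apart in the order of dose. At 80 µM it was 2.00-fold the control (log2 1.00 ± 0.11, adjusted p = 9.25e-05), the smallest p among the repair genes that rose. XPC, which detects distorted DNA across the genome (chr 3, 14145147 to 14178783, minus strand), had 67.3, 71.2 and 71.1 CPM in the control, 92.1, 69.3 and 78.1 CPM at 40 µM, and 109.9, 119.1 and 108.9 CPM at 80 µM. Only the libraries at 80 µM stood apart from the control (log2 0.69 ± 0.12, adjusted p = 0.00129). The strand setting of the counting is not given, so reads of overlapping genes may be mixed. XPC, with 11168 counts over all libraries, shares 6.6% of its exonic bases with LSM3 (9388 counts, log2 -0.63) and 23.8% with the antisense gene XPC-AS1 (202 counts, log2 1.07).

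ERCC6, a remodeller that acts at stalled polymerases, averaged 23.0 ± 0.754 CPM at 80 µM against 16.7 ± 3.14 CPM in the control (SD, n = 3 each). Its call (log2 0.46 ± 0.16, adjusted p = 0.046) depended on the setting and on single libraries. It was lost without control replicate 2 or 3 (adjusted p = 0.0764 and 0.141), without 40 µM replicate 2 or 3 (0.0633 and 0.0502) and without 80 µM replicate 1, 2 or 3 (0.112, 0.0787 and 0.0922). It was also lost with library totals (0.0602), no filter (0.121), only the 6 libraries compared (0.0518) and the replicate block (0.0764). Without control replicate 3 its log2 fold change was 0.30. ERCC8, its partner in the same step, averaged 10.1 CPM at 80 µM and 11.3 CPM in the control and did not pass the test (log2 -0.16, interval -0.50 to 0.18).

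After recognition, a helicase complex opens the DNA and nucleases cut the damaged strand on both sides of the lesion. ERCC5, one of these nucleases (chr 13, 102807146 to 102876001, plus strand), had 47.4, 43.7 and 37.1 CPM in the control, 48.3, 52.3 and 61.3 CPM at 40 µM, and 61.1, 69.2 and 62.7 CPM at 80 µM. Its libraries at 80 µM all lay above the control, by log2 0.59 ± 0.13 (adjusted p = 0.00623). Part of its exonic bases (63.2%) also belongs to the read-through gene BIVM-ERCC5. The helicase ERCC2 (chr 19, 45349837 to 45370918, minus strand) went the other way, with 20.8, 22.2 and 26.03 CPM in the control, 21.9, 19.6 and 21.0 CPM at 40 µM, and 14.5, 16.1 and 13.9 CPM at 80 µM. All libraries at 80 µM were below the other 6, and the change from control was log2 -0.63 ± 0.13 (adjusted p = 0.00402).

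ERCC4, the catalytic subunit of the other nuclease, missed the threshold (log2 0.47, adjusted p = 0.0543) and passed it in DESeq2 (0.044) and in the 6 libraries of the comparison alone (0.0438). Leaving out 40 µM replicate 1 or 3 or 80 µM replicate 3 also brought it under the threshold (0.0414, 0.0434 and 0.0499). Its partner ERCC1 was at log2 0.10 (interval -0.21 to 0.41), and 28.6% of its exonic bases overlap POLR1G, which was at log2 -1.499. XPA, which checks the lesion, was at -0.01 (interval -0.35 to 0.33), and the helicase ERCC3 at -0.18 (interval -0.39 to 0.03).

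**Figure D2:**
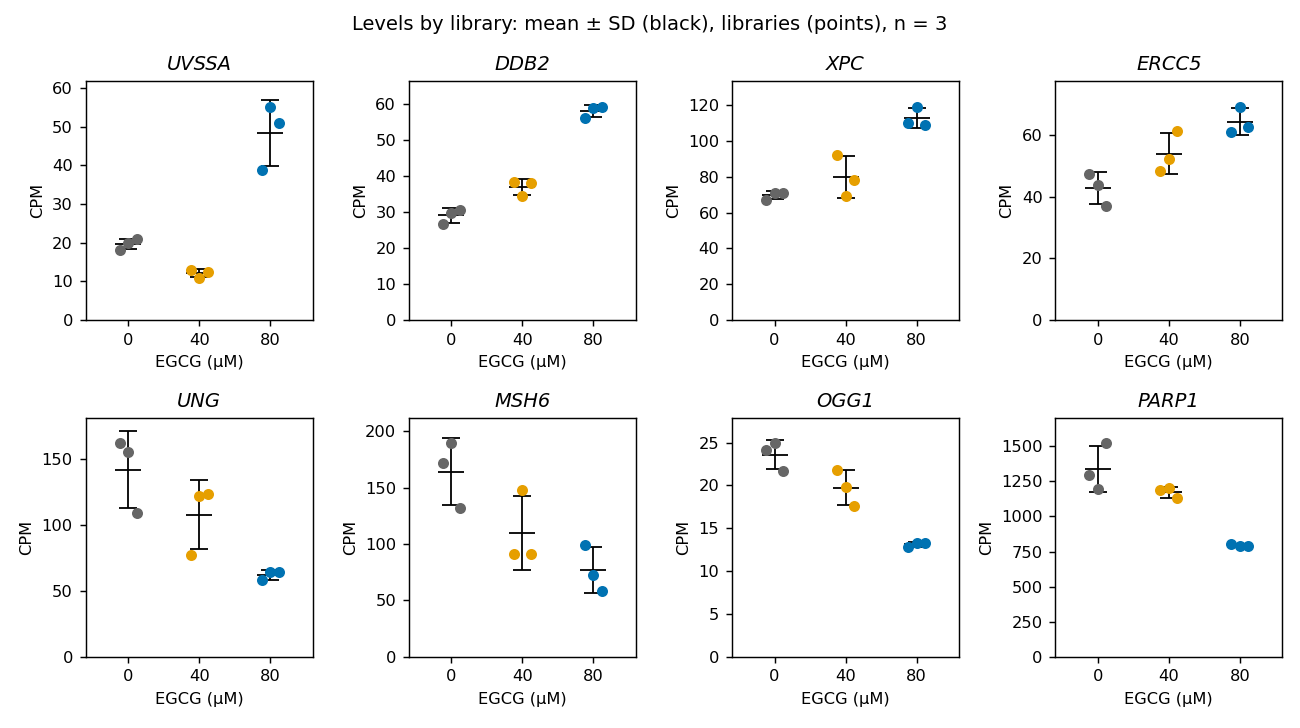
CPM (y axis, linear from 0) of 8 repair genes at 0, 40 and 80 µM EGCG (x axis), with 1 point per library and black bars for the mean ± SD of 3 libraries. UVSSA lies between 10.9 and 12.96 CPM at 40 µM and above 38 CPM at 80 µM, while UNG, OGG1 and PARP1 are lowest at 80 µM.

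Base excision repair starts with glycosylases, enzymes that lift out an altered base, and both glycosylases among the 40 genes (UNG and OGG1) fell at 80 µM. UNG, which removes uracil (chr 12, 109097574 to 109110992, plus strand), had 161.5, 154.9 and 108.6 CPM in the control, 77.2, 121.9 and 123.5 CPM at 40 µM, and 57.9, 64.0 and 64.2 CPM at 80 µM. The libraries at 80 µM were close together and below all others. Its level at 80 µM was 0.438 times the control (log2 -1.19 ± 0.20, adjusted p = 0.00114). OGG1, which removes oxidised guanine (chr 3, 9749944 to 9788219, plus strand), had 24.2, 24.9 and 21.7 CPM in the control, 21.8, 19.8 and 17.6 CPM at 40 µM, and 12.8, 13.3 and 13.3 CPM at 80 µM. It fell by log2 0.84 ± 0.13 at 80 µM (adjusted p = 0.000637), and its libraries at 80 µM lay below those of both other doses. OGG1, with 2401 counts over all libraries, overlaps 2 genes on the other strand. It shares 4.1% of its exonic bases with TADA3 (9379 counts, log2 0.54) and 25.0% with CAMK1 (606 counts, log2 -0.62).

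PARP1, which senses breaks and calls in repair factors (chr 1, 226360691 to 226408079, minus strand), had 1298, 1199 and 1521 CPM in the control, 1186, 1204 and 1130 CPM at 40 µM, and 802.1, 791.9 and 791.7 CPM at 80 µM. The libraries at 80 µM differed from each other by little and lay below the other 6 (log2 -0.75 ± 0.10, adjusted p = 0.000384). PARP1 was also the most abundant of the 40 transcripts for its length, at 187 CPM per kb of exon in the control. The next were UNG at 55.2, FANCI at 25.6, APEX1 at 18.0 and XRCC1 at 17.1 CPM per kb, and the lowest was RAD51B at 0.294 CPM per kb. The place of APEX1 in this order rested on control replicate 1, as its levels below show. The order also rests on the length used. Lengths implied by the deposited FPKM (scaled for depth and length) were 5.79 times the merged exon length for APEX1 and 5.47 for PARP1. For FANCI, UNG and XRCC1 they were 2.62, 2.44 and 1.26 times that length. XRCC1, a scaffold for the ligation step, was at log2 -0.05 (interval -0.36 to 0.26). APEX1, the endonuclease that nicks the emptied site, was at log2 -0.40 (adjusted p = 0.389), but its control libraries read 56.1, 24.3 and 21.4 CPM. Without control replicate 1 its log2 fold change was 0.18 at 80 µM and 0.06 at 40 µM, against -0.52 at 40 µM with all libraries.

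In mismatch repair MSH6, a subunit of the mismatch sensor (chr 2, 47695530 to 47810101, plus strand), had 171.9, 189.3 and 131.7 CPM in the control, 90.7, 147.8 and 91.6 CPM at 40 µM, and 99.1, 72.6 and 58.5 CPM at 80 µM. The control stood above 80 µM in every library, while 40 µM lay between and overlapped both. At 80 µM the level was 0.467 times the control (log2 -1.10 ± 0.24, adjusted p = 0.00526). MSH6 shares 16.2% of its exonic bases with FBXO11 on the opposite strand, which was at log2 0.58. PMS2, which cuts the new strand, averaged 50.6 ± 1.40 CPM at 80 µM against 43.3 ± 3.56 CPM in the control (log2 0.23, adjusted p = 0.115). Its reads may be split with near-identical copies, since PMS2P1 and PMS2CL held 4720 and 2730 counts over all libraries against 6241 for PMS2.

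Among the recombination genes XRCC3, a protein of the strand-exchange step (chr 14, 103697609 to 103715504, minus strand), had 36.0, 34.1 and 34.1 CPM in the control, 31.3, 28.3 and 26.8 CPM at 40 µM, and 19.6, 25.5 and 24.9 CPM at 80 µM. The 3 groups did not overlap and were ordered by dose, and the change at 80 µM was log2 -0.57 ± 0.13 (adjusted p = 0.00678). KLC1 covers 76.7% of the exonic bases of XRCC3 on the other strand and was at log2 0.05. BRCA1 and BRCA2, which start and load the strand exchange, did not pass the test, at log2 0.08 (interval -0.51 to 0.68) and -0.07 (interval -0.72 to 0.58). BRCA1 averaged 45.3 ± 10.98 CPM at 80 µM and 42.7 ± 17.1 CPM in the control.

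PALB2, the bridge between BRCA1 and BRCA2, averaged 22.04 ± 1.39 CPM at 80 µM against 28.7 ± 3.63 CPM in the control (log2 -0.38, adjusted p = 0.0415). RAD52, an annealing factor, averaged 8.97 ± 1.32 CPM at 80 µM against 6.34 ± 0.402 CPM in the control (log2 0.50, adjusted p = 0.0376). Both calls depended on the setting and on single libraries. That of PALB2 was lost without control replicate 1 or 2 (adjusted p = 0.149 and 0.121), 40 µM replicate 3 (0.0625) or 80 µM replicate 1, 2 or 3 (0.108, 0.0688 and 0.126). It was also lost with upper-quartile scaling (0.0549), library totals (0.077), mitochondrially encoded genes left out (0.0509), no filter (0.0867), only the 6 libraries compared (0.0553) and the replicate block (0.0627). That of RAD52 was lost without control replicate 1, 2 or 3 (0.0889, 0.0525 and 0.106) or 80 µM replicate 1 (0.14), and with DESeq2 (0.0508), no filter (0.118) and the replicate block (0.0721). The other 7 recombination genes ran from log2 -0.41 (RAD51B, at 1.66 CPM) to 0.05 (XRCC2) with no call. RAD54L, a motor protein, was at -0.31 (adjusted p = 0.077) and passed only without control replicate 2 (0.0381).

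In the Fanconi anaemia route 3 genes fell, all of them coding for core complex proteins, and 5 other core complex genes were not called. FANCL, the ubiquitin ligase of the complex (chr 2, 58159243 to 58241372, minus strand), had 18.3, 19.3 and 13.6 CPM in the control, 16.9, 18.6 and 12.98 CPM at 40 µM, and 9.59, 8.98 and 10.3 CPM at 80 µM. The control and 40 µM overlapped and 80 µM lay below both (log2 -0.83 ± 0.18, adjusted p = 0.00521). VRK2 overlaps 18.7% of its exonic bases and was at log2 0.54. FANCE and FANCA, further core members, fell by log2 0.49 and 0.39 (adjusted p = 0.0156 and 0.0191). FANCE lost its call without 80 µM replicate 2 (0.0783), and FANCA without control replicate 1 (0.0557) or 80 µM replicate 1 or 2 (0.0647 and 0.0834).

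FANCI and FANCD2, the pair that the ligase marks, were not called, at log2 -0.25 and 0.25. FANCI passed only without control replicate 3 (log2 -0.41, adjusted p = 0.0202). FANCG was at -0.43 with 19.3, 37.4 and 33.3 CPM at 80 µM, and at -0.20 without 80 µM replicate 1. FANCB, FANCF, FANCM and FANCC lay at -0.39, -0.29, -0.02 and 0.17, none of them called.

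**Figure D3:**
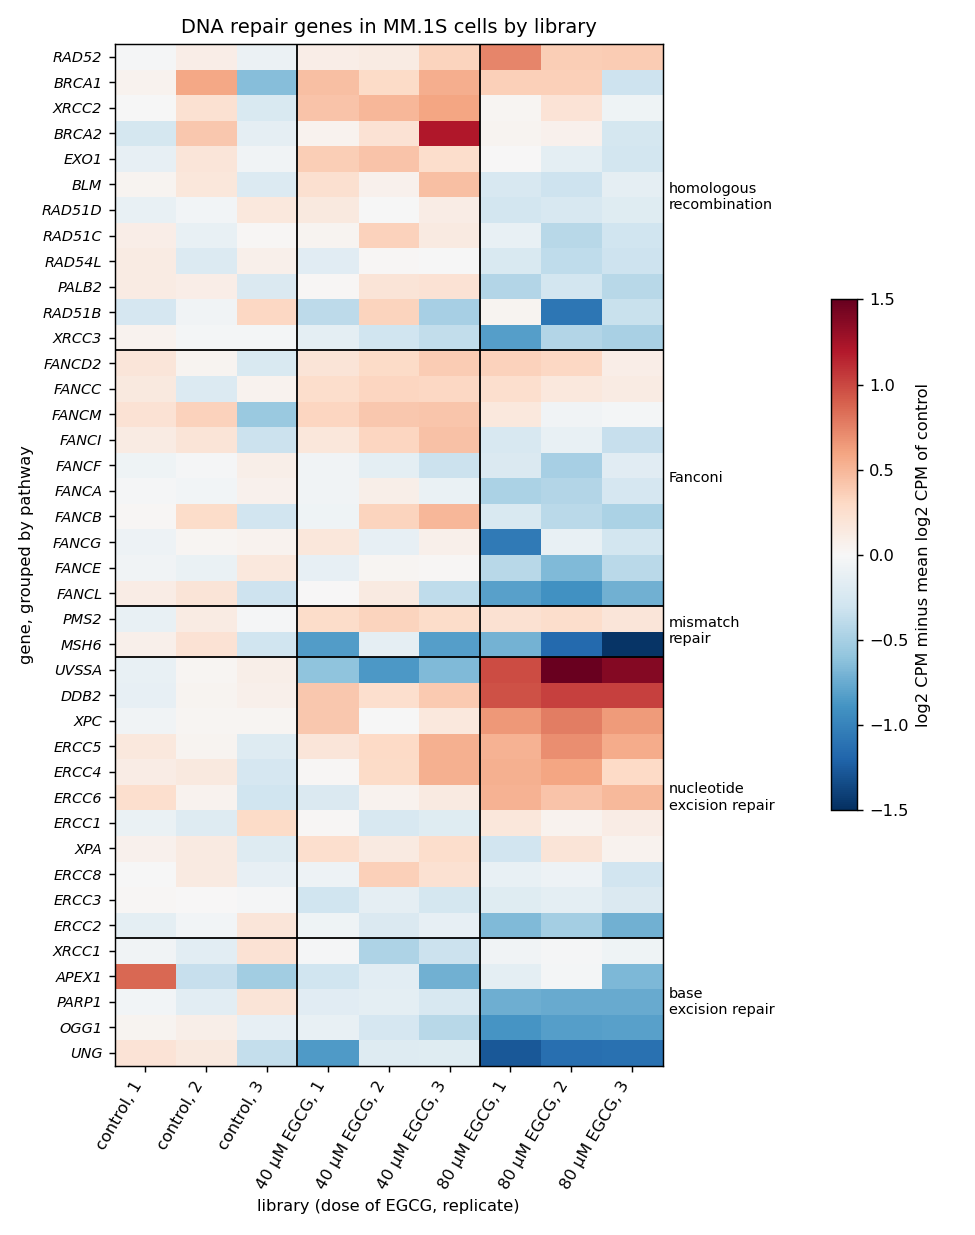
Level of each of the 40 repair genes (rows, by pathway) in each of the 9 libraries (columns, by dose), as log2 CPM minus the mean log2 CPM of the 3 control libraries (colour). Nucleotide excision repair genes such as UVSSA, DDB2 and XPC are above the control mean in all 3 libraries at 80 µM, and UNG, OGG1, PARP1 and MSH6 are below it.

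The lower dose left nearly all repair genes uncalled. At 40 µM 1 of the 40 genes changed against the control (2.5%), where 2.30% of all genes were called, 1.49% higher and 0.813% lower. That gene was UVSSA, which fell by log2 0.70 ± 0.15 (adjusted p = 0.0444). Its call was lost under 13 of 18 alternatives, among them leaving out any control library (adjusted p = 0.0958, 0.0861 and 0.106 without replicate 1, 2 and 3), any library at 40 µM (0.055, 0.135 and 0.126) and 80 µM replicate 2 or 3 (0.0601 and 0.0749). Its log2 fold change stayed between -0.76 and -0.64. The median over the 40 genes was 0.11, against 0.01 over all genes, and 9 had an unadjusted p under 0.05. XRCC2, which works with XRCC3 in strand exchange, had 78.4, 92.4 and 66.9 CPM in the control, 105.7, 110.6 and 118.4 CPM at 40 µM, and 80.2, 90.4 and 75.1 CPM at 80 µM. Only the libraries at 40 µM stood above the rest, by log2 0.49 ± 0.13 against the control (adjusted p = 0.081 in edgeR and 0.0285 in DESeq2). BRCA2 had the highest estimate at 40 µM (0.55), which came from 33.5 CPM in replicate 3 beside 15.2 and 17.0 CPM in the others and was 0.11 without that library.

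Both comparisons with control share the same 3 control libraries, so their estimates are given side by side. In 15 genes both estimates were below 0 and in 10 both were above 0. In 12 genes the estimate was above 0 at 40 µM and below 0 at 80 µM, and in 3 it was the reverse (UVSSA, ERCC6 and ERCC1). EXO1, a nuclease that resects ends, was at 0.35 at 40 µM and -0.14 at 80 µM. BLM, a helicase that dissolves recombination intermediates, was at 0.26 and -0.23, and FANCI at 0.30 and -0.25.

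Between the doses, 80 µM against 40 µM, 16 of the 40 genes changed, 3 higher and 13 lower (7.5% and 32.5%). Over all genes 23.0% were called, 10.9% higher and 12.1% lower. The median log2 fold change of the 40 genes was -0.31. UVSSA, DDB2 and XPC rose, by log2 2.00 ± 0.15, 0.65 ± 0.11 and 0.50 ± 0.12 (adjusted p = 8.48e-05, 0.00223 and 0.0125). Of the 16 genes, 11 were also called at 80 µM against the control, and 5 were called between the doses alone. These 5 were EXO1 (-0.48, adjusted p = 0.0175), BLM (-0.49, 0.0283), FANCI (-0.55, 0.0186), XRCC2 (-0.45, 0.0335) and RAD51C (-0.45, 0.0439), all counted here under the recombination and Fanconi routes. All 5 missed the threshold without 80 µM replicate 3 (0.081, 0.0592, 0.0806, 0.131 and 0.13). Under the 18 alternatives RAD51C lost its call in 14, among them DESeq2 (0.0565) and every other scaling. XRCC2 lost it in 9, BLM in 8, FANCI in 4 and EXO1 in 3. In base excision repair UNG, OGG1 and PARP1 were lower at 80 µM than at 40 µM by log2 0.79, 0.59 and 0.56 (adjusted p = 0.0161, 0.00838 and 0.00396). Without 80 µM replicate 2 XPC and UNG missed the threshold (0.0543 and 0.0513), and UNG also did without 80 µM replicate 1 (0.0524) or 40 µM replicate 2 or 3 (0.0605 and 0.0561). The count of 16 fell to 7 or 8 when 40 µM replicate 2 (7), 40 µM replicate 3 (7) or 80 µM replicate 1, 2 or 3 (8, 7 and 8) was left out, and DDB2, UVSSA, OGG1 and PARP1 were the 4 called under every alternative.

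A further 102 repair genes outside the 40 were listed from the same and neighbouring pathways, and 101 were tested. At 80 µM 6 rose and 25 fell against the control (5.94% and 24.8%), 30.7% in all where 34.9% of all genes were called, with a median log2 fold change of -0.16, and at 40 µM none was called by edgeR's test, 20 of them having an unadjusted p under 0.05. In base excision repair MBD4, a glycosylase for mismatched thymine, rose by log2 0.74 (adjusted p = 0.00441) and APLF, a break-associated factor, by 1.20 (0.00692). NTHL1, a glycosylase for oxidised pyrimidines, and the flap nuclease FEN1 fell by log2 1.13 and 0.89 (adjusted p = 0.000698 and 0.000108). In the Fanconi route WDR48, a cofactor of the deubiquitinase USP1, rose by 0.90 (0.000892), and the core-complex partners CENPX and FAAP100 fell by 1.31 and 0.91 (0.00124 and 0.000444).

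The DNA ligase LIG1, which seals the repaired strand, fell by log2 0.58 at 80 µM (adjusted p = 0.00273). Of the end joining genes PRKDC, a kinase that holds broken ends, fell by 0.85 (0.000542) and XRCC5, its DNA-binding partner, by 0.53 (0.00726). The damage-marking histone H2AX and the checkpoint adaptor CLSPN fell by 0.68 and 0.71 (adjusted p = 0.0014 and 0.00228). Of 5 further mismatch repair genes 1 rose and 2 fell. The calls of 5 named genes were lost when single libraries were left out: SEM1 (-0.43, adjusted p = 0.0307), RPA1 (-0.26, 0.0459), XAB2 (0.32, 0.044), USP7 (-0.35, 0.0391) and TP53BP1 (0.35, 0.0268). Leaving out control replicate 1 put all of them above the threshold (0.0835, 0.13, 0.136, 0.105 and 0.0729) as did leaving out 80 µM replicate 2 (0.0991, 0.18, 0.111, 0.136 and 0.0767) and using no filter on low counts (0.0607, 0.104, 0.0983, 0.06 and 0.0877).

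**Figure D4:**
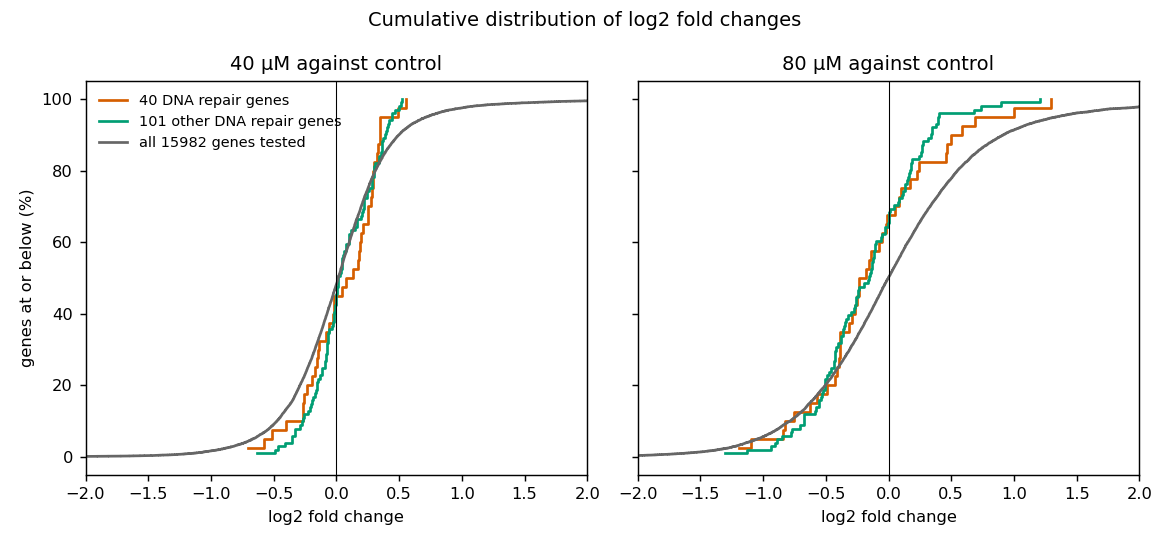
Share of genes (y axis, percent) at or below a log2 fold change against the control (x axis), at 40 µM (left) and 80 µM (right), for the 40 repair genes, 101 other repair genes and all 15982 genes tested. At 80 µM the curves of the repair genes have medians of -0.21 and -0.16, left of the -0.0013 of all genes.

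Genes outside repair, in lists chosen with earlier results of these data known, moved beside these changes. Their counts are therefore descriptions. Of 20 replication and proliferation genes 14 fell and none rose at 80 µM (70% lower, against 17.5% of all genes), with a median log2 fold change of -0.54. Their summed level was 3433 ± 120 CPM at 80 µM against 5145 ± 266 CPM in the control (SD, n = 3 each). MCM4, a subunit of the replicative helicase, fell by log2 1.15 ± 0.12 (adjusted p = 7.5e-05) and the transcription factor gene E2F1 by 1.00 ± 0.12 (0.000199). All 10 listed p53 targets outside repair rose at 80 µM, where 17.4% of all genes did, with a median of 2.57, among them CDKN1A by 3.11 ± 0.34 (0.000107). These 10 genes summed to 1805 ± 129 CPM at 80 µM against 494 ± 43.8 CPM in the control, and at 40 µM to 828 ± 33.9 CPM, with 5 of 10 called higher against 1.49% of all genes. The part of replication, p53 activity or mitochondrial RNA content in the changes of the repair genes was not tested.

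The 5 genes whose log2 CPM over the 9 libraries was most like that of DDB2 were FYN, ERBB2, ALPK1, OSBP and HSPA6, with Pearson r from 0.9909 to 0.9945. For PARP1, the fallen gene with the smallest p, they were TUBB4B, EIF3B, SUMO3, DTYMK and EIF5AP4, with r from 0.9933 to 0.9971. The 9 points fall into 3 dose groups, and no p is given for r.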

How the data were processed

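RNA of 9 MM.1S libraries was analysed, 3 each at 0, 40 and 80 µM EGCG. The authors deposited 1 table with a whole-number read count and an FPKM value for each Ensembl gene ID in each library, as the file headers state. The counts were deposited without normalization. FPKM, which the authors deposited as values scaled for depth and gene length, entered no test or level here, because the lengths they imply were 1.11 to 5.79 times the merged exon lengths of the repair genes. Per the submitters' processing notes, CASAVA 1.8, HISAT2 and SAMtools 1.3.1 were used with edgeR on GRCh38, in roles that are not described. The sources used here do not give the annotation, the counting program or its strand setting.

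The 40 symbols were matched to the table's IDs through a table of Ensembl gene names, which gave a symbol for 60419 of 60675 IDs, and GRCh38 positions were taken from GENCODE 29. The genes and the other lists were chosen with earlier results of these data known. Genes were filtered with filterByExpr by dose, which kept 15982, and scaled by TMM. Differences were tested with edgeR 4.0.16 (glmQLFit and glmQLFTest, R 4.3.3) on the 9 libraries together, with 1 factor for dose, 6 residual degrees of freedom and no replicate block. Benjamini-Hochberg adjustment ran over all tested genes, and adjusted p-values in the text come from it where no other tool is named. Standard errors are log2 fold changes over the root of F, and intervals are at 95%. CPM is TMM-scaled, and genes are ranked by level only as CPM per kb of merged exon. Sums over genes, and the part of a gene in a sum, are in CPM with no scaling for length. The script was checked on simulated counts. Replicates of a dose had a chi-square of 12.71 to 33.21 per degree of freedom against counting noise, so none was a copy.

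All 40 genes are named. Values by library were given for those called with an absolute log2 fold change of at least 0.5 against the control, or with the smallest p of their pathway at 80 µM. XRCC2 and single values of APEX1, BRCA2 and FANCG were added after their values were seen, as were MCM4, E2F1 and CDKN1A. From the other repair genes the 2 with the smallest p in each direction and pathway are named, and some are not reported here. Of the alternatives, 18 were run: limma-voom 3.58.1, DESeq2 1.42.0, other scalings, no filter, the 6 libraries compared, mitochondrially encoded genes left out, a replicate block, and each library left out in turn.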

Additional observations from a re-analysis of the deposited data

How the results depend on the processing

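At 80 µM against the control, 16 repair genes were called, 12 to 17 under the 18 alternatives, and 11 of the 16 held under all of them. At 40 µM the count of 1 was 0 with limma-voom, with library totals in place of TMM, with no filter, in the 6 libraries compared and with the replicate block, and 2 with DESeq2. Leaving out 1 library gave 0 to 1. Between the doses the count of 16 ran from 7 to 19 when 1 library was left out. The median log2 fold change between the doses (-0.31) was -0.28 with upper-quartile scaling, -0.27 with library totals and -0.35 to -0.28 with 1 library left out. The cause of these shifts was not tested. No result changed direction among those past the threshold, and the other scalings moved the median of all genes by at most 0.039 (0.058 with no filter). Over all genes, 368 were called at 40 µM in edgeR's quasi-likelihood test, 847 with DESeq2 and 136 in the lowest count, and between the doses 3674, and 2101 to 4059 under the alternatives. Among the values of single genes under the alternatives, 170 lost a call, 18 gained one and 2332 stayed on the same side of the threshold.

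Libraries with the same replicate number did not deviate together, with correlations from -0.139 to 0.051, so the numbers are not taken to pair them. With the replicate block 13 repair genes were called at 80 µM against the control (4 higher, 9 lower), 0 at 40 µM and 13 between the doses. Depth limits RAD51B and other genes of a few CPM, and 3 libraries per dose limit every interval. Overlapping genes and unknown strand counting leave the values of several genes uncertain.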
